A study of Mus musculus with 6 samples.

Results

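Gamma delta (γδ) T cells were taken as the cells that the submitters annotated as gdT in lymph nodes of pregnant mice, with no further selection. The deposited table held 98 such cells of 9427, but 1 of its 6 wells, well 1 of pool LN, was present in duplicate. All 2127 of the repeated entries matched an earlier entry of that well in barcode, in the count of every gene and in mouse, node, genotype and cell type, and 25 of them were gdT cells. With each cell counted once, 73 gdT cells of 7300 were left, and these 73 cells are described below. The annotation was made by the submitters, and how they made it is not given in the sources used here.

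γδ T cells are lymphocytes whose antigen receptor is built from a γ and a δ chain in place of the α and β chains of CD4 and CD8 T cells. Like all T cells they carry the receptor with the CD3 proteins, but most need neither CD4 nor CD8, and their δ chain is assembled from gene segments that lie inside the α chain locus. In mice they leave the thymus largely committed, either to a type 1 program (CD27 on the surface, interferon γ, T-bet and Eomes, receptors for interleukin 15) or to a type 17 program (interleukin 23 and interleukin 1 receptors, CCR6 and CCR2). Those that recirculate through lymph nodes use CCR7 and S1PR1 to enter and leave.

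The cells came from 7 dams, 4 Aire-DTR and 3 WT, that were mated with BALB/c males. Aire-DTR mice carry the diphtheria toxin receptor under the control of Aire, so that toxin removes Aire-expressing cells, and the dams of both genotypes received toxin over the first 9 days of pregnancy. At embryonic day 9.5, the uterine-draining lymph nodes (udLN) and the brachial lymph nodes (brLN, which do not drain the uterus) of each dam were collected, hash-tagged and sequenced in 3 pools, each with both genotypes. Pool 1 held Aire-DTR mouse 8 and WT mouse 6, pool 2 held Aire-DTR mouse 36 and WT mouse 97, and pool LN held Aire-DTR mice 4 and 7 and WT mouse 1. Aire-DTR mouse 4 was annotated as having resorbed embryos and the other Aire-DTR mice as growth-restricted. Uterine cells of pools 1 and 2 were not analysed here.

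The 73 gdT cells held 213520 UMIs, with a median of 2677 UMIs and 1226 genes per cell, against a median of 2910 UMIs over all 7300 cells. They came from every mouse and every pool: 40 from Aire-DTR and 33 from WT mice, 22 from udLN and 51 from brLN. Mice 36, 4 and 7 (Aire-DTR) gave 5, 14 and 17 cells and mice 97 and 1 (WT) gave 17 and 13, while Aire-DTR mouse 8 gave 4 and WT mouse 6 gave 3. Of all distinct cells, 419 had a barcode that also occurred in another well, 4 of them gdT cells. The labels disagree on the sort, with CD3 named in the protocol but not in the series design, and the 7300 cells included 2267 annotated B cells.

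The receptor genes fitted the annotation. Trdc, the constant gene of the δ chain (GRCm38 chr14:54142851-54148868, plus strand), had a UMI in 55 of 73 gdT cells (75.3%, 95% Wilson interval 64.4% to 83.8%). Among B cells, which should lack it, 1 of 2267 had a Trdc UMI (0.0441%), at a median of 2261 UMIs per cell. After every cell was thinned to 1000 UMIs, which left out 2 gdT cells and 60 B cells, 39.4% of gdT cells and 0 of 2207 B cells had one. These intervals, and all others on shares of cells, cover counting error only.

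Summed over cells, Trdc stood at 567 CPM (counts per 1000000 UMIs) in gdT cells, against 5.49 CPM in the CD4 classes, 2.36 CPM in the CD8 classes and 60.6 CPM in NK cells. The 5 mice with at least 5 gdT cells each had Trdc in them, at 707, 532 and 626 CPM in Aire-DTR mice 36, 4 and 7 and at 711 and 454 CPM in WT mice 97 and 1. The genotypes overlapped, and in none of the 5 mice did the CD4, CD8 or NK sum reach the gdT sum. Since the classes were annotated on the same cells, comparisons between classes are descriptions and carry no test. In such sums, a different mix of cells and a different level within each cell cannot be told apart.

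The γ chain was as plain. Trgv2, a γ variable gene (chr13:19336573-19337167, minus strand), had a UMI in 46 of 73 cells and stood at 576 CPM in gdT cells, against 3.19 CPM in CD4 and 2.00 CPM in CD8 classes. The γ constant genes Tcrg-C1, Tcrg-C2 and Tcrg-C4 were found in 13, 13 and 14 cells, and the γ variable genes Tcrg-V1 and Tcrg-V4 in 18 cells each. Tcrg-C1 and Tcrg-C2 share 35.8% of the 31-base stretches of Tcrg-C1, and Trgv2 shares 19.5% of its stretches with Tcrg-V1, so the split of reads between such genes is uncertain. Counted together, 70 of 73 cells (95.9%, 88.6% to 98.6%) held a UMI of some γ or δ receptor gene, 69 held at least 2, and 3 held none. Some of these segments can also join the α chain. A UMI of the set was found in 64.8% of NK cells, 21.3% of CD4 cells, 17.8% of CD8 cells and 1.01% of B cells. Why it was found outside gdT cells was not tested. Thinned to 1000 UMIs, the shares were 88.7% in gdT cells, 31.5% in NK, 11.3% in CD4, 7.33% in CD8 and 0.453% in B cells.

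The CD3 genes, which encode the signalling chains of every T cell receptor, stood at the level of the other T cells. Cd3e was at 1269 CPM in gdT cells, against 1117 CPM in CD4 and 1120 CPM in CD8 classes, and Cd3d and Cd3g at 1335 and 1199 CPM in gdT cells, against 1237 and 1160 CPM in CD4 classes. Cd3e had a UMI in 68 of 73 gdT cells and in 6.22% of B cells, and in 71.8% of gdT and 3.17% of B cells after thinning. Of the markers of other cells, Ms4a1 (B cells) and Lyz2, Csf1r, Itgam and Fcgr3 (myeloid cells) were at 0 UMIs, and Cd79a had 1 UMI. Cd79b, a B cell receptor chain, was at 37.5 CPM in gdT cells (8 UMIs in 7 cells), against 11.6 CPM in CD4 and 2631 CPM in B cells. Cst3, a protease inhibitor abundant in myeloid cells, was at 159 CPM in gdT cells (34 UMIs in 23 cells), against 111 CPM in CD4 and 2861 CPM in myeloid cells. Hbb-bs, a globin of red cells, was at 272 CPM in gdT cells, against 388 CPM in CD4 and 616 CPM in B cells.

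Receptor genes of αβ T cells were not absent, while Cd4 was. Cd4 was at 0 of 73 cells, which allows a share of up to 4.11%, and Izumo1r, a folate receptor of CD4 T cells, was also at 0. Trac, the α constant gene, was at 122 CPM in gdT cells, against 266 CPM in CD4 and 188 CPM in CD8 classes, and 18 of 73 gdT cells (24.7%) and 3.48% of B cells had a UMI of it (11.3% of gdT and 0.906% of B cells after thinning). The 73 cells annotated as myeloid had a Trac UMI in 21.9% of cells (6.56% after thinning), and 32.9% of them also held a Cd3e UMI. In Aire-DTR mice 36, 4 and 7 Trac was at 236, 145 and 157 CPM and in WT mice 97 and 1 at 96.1 and 60.6 CPM, below the CD4 sum of the same mouse in all 5. The β constant genes Trbc1 and Trbc2 were at 93.7 and 201 CPM in gdT cells, against 95.3 and 193 CPM in CD4 classes, and they share 44.8% of the 31-base stretches of Trbc1.

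Cd8b1 and Cd8a, the 2 chains of CD8, were found in a minority of gdT cells. Cd8b1 was at 295 CPM in gdT cells, against 1800 CPM in CD8 and 107 CPM in CD4 classes, but its 63 UMIs lay in 16 cells. Of the 13 cells with at least 3 UMIs of Cd8a and Cd8b1 together, 11 held a UMI of a γ or δ receptor gene and 2 a UMI of Trac. A Cd8b1 UMI was found in 21.9% of gdT cells (14.0% to 32.7%) and 3.57% of B cells, and thinned to 1000 UMIs the shares were 18.3% in gdT cells and 1.95% in B cells. In the myeloid cells the share was 23.3% (18.0% after thinning), at a median of 3381 UMIs per cell against 2677 in gdT cells, so the gdT share did not exceed that of every class that should lack the gene.

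Most gdT cells held a single δ variable gene at more than 1 UMI. Of 73 cells, 49 held exactly 1 δ variable gene at 2 or more UMIs, 6 held 2, and 18 held none. The share with exactly 1 was 67.1% in gdT cells, against 14.8% in NK, 9.01% in CD4, 6.17% in CD8 and 0.221% in B cells, and thinned to 1000 UMIs 43.7% in gdT cells, against 3.70% in NK, 3.17% in CD4, 1.38% in CD8 and 0.0453% in B cells. Trdv2-2 (chr14:53960944-53961602) reached that level in 14 cells, Trdv5 in 14, Trav13-4-dv7, a segment that can serve the α or the δ chain, in 13, and Trdv1 in 10. A segment of the dv6 group reached it in 9 cells, Trav21-dv12 in 1, and Trdv4 in none. No single segment reached that level in more than 14 of the 73 cells. The picture depends on the threshold. With single UMIs also counted, 36 of 73 cells held exactly 1 δ variable gene, 24 held 2, 2 held 3 and 11 held none. Trdv5 lies on the opposite strand and overlaps the end of Trdc by 207 bases, and Trdv2-2 shares 60.2% of its 31-base stretches with Trdv2-1, so these counts carry some uncertainty. The labels also leave unsettled which end of the transcripts was read.

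**Figure D1:**
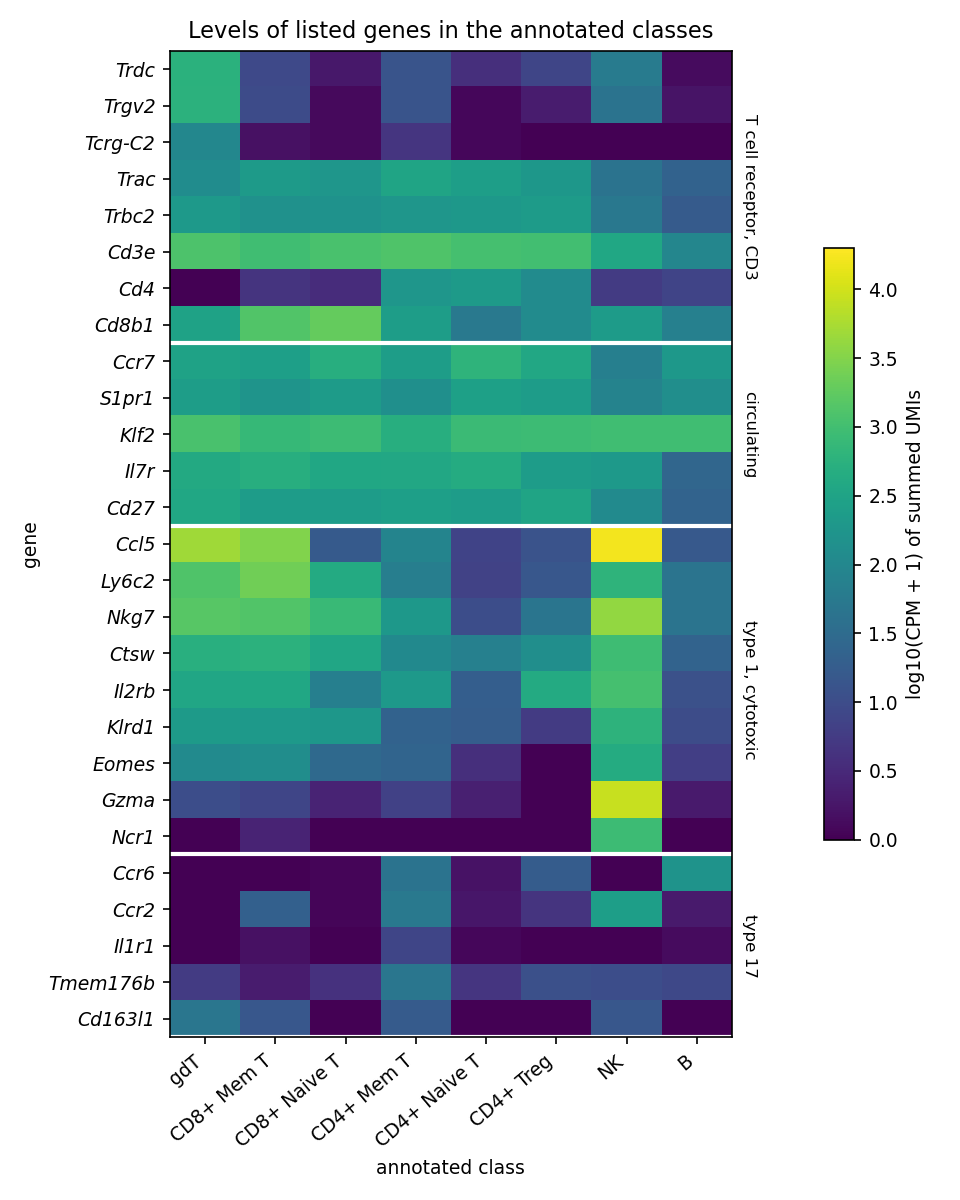
Levels of genes from 4 lists (rows) in the annotated classes (columns), with gdT at the left, as log10 of CPM + 1 from UMIs summed over the distinct cells of each class. The γ and δ genes are bright in gdT cells, Ccl5 is bright in gdT, CD8+ Mem T and NK cells, Nkg7 in these and in CD8+ Naive T cells, and Ccr6, Ccr2 and Il1r1 are at 0 in gdT cells.

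The gdT cells had transcripts of genes that recirculating cells use. Ccr7, the receptor for entry into the T cell zone, was at 295 CPM in gdT cells, against 499 CPM in CD4 and 446 CPM in CD8 classes, and lower than both in all 5 mice. S1pr1, the receptor for leaving the node, and Il7r, the interleukin 7 receptor, were at 248 and 407 CPM in gdT cells, against 236 and 401 CPM in CD4 classes. Klf2, which drives S1pr1, was at 1161 CPM in gdT cells and 762 CPM in CD4 classes.

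Of the 15 genes of the circulating list, all 15 could be counted against CD4 cells, with 1 higher past 2-fold (Ccr9, a gut homing receptor, 93.7 CPM in gdT cells and 5.62 CPM in CD4 classes) and 1 lower (Igfbp4, 126 CPM in gdT cells and 874 CPM in CD4 classes). The background for that comparison was 2.18% of 2708 counted genes higher and 2.88% lower past 2-fold. The list's median log2 ratio was 0.06, beside 0.003 over all counted genes. Gene lists and members were compared on the log2 ratio of CPM with 10 CPM added to each side, over genes with at least 20 UMIs in gdT cells or at least 50 CPM in the other class. A gene can enter through a high level in either class, so these counts describe the classes and test nothing.

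Type 1 and cytotoxic genes mostly stood at a higher CPM in gdT than in CD4 cells, while interferon γ was too rare in both to compare. Of the 25 listed, 23 had a higher CPM in gdT cells and 2 a lower one, with no test. These 2 were Ifng (interferon γ), at 0 UMIs in gdT cells and 0.511 CPM in CD4 classes, and Gzmb, a granzyme. Gzmb was at 4.68 CPM (1 UMI) in gdT cells and 11.7 CPM in CD4 classes. Both CD4 values were under the 14.1 CPM that a count of 0 allows in the gdT sum. A lower level in gdT cells was therefore not detectable for either gene at this depth. Tbx21 (T-bet) was at 46.8 CPM in gdT cells, in 7 cells, and at 3.83 CPM in CD4 classes. Of the 9 genes of the list that could be counted, 5 entered through their level in gdT cells alone. Ccl5, a chemokine of effector T and NK cells, had the largest log2 ratio of the counted genes (7.07), at 4899 CPM in gdT cells and 26.4 CPM in CD4 classes. In Aire-DTR mice 36, 4 and 7 it was at 3615, 6655 and 5205 CPM in gdT cells and in WT mice 97 and 1 at 2921 and 6542 CPM. Neither genotype stood apart, and the highest CD4 sum among these mice was 72.7 CPM.

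Ly6c2, a surface protein of memory-like CD8 and γδ cells, was at 1293 CPM in gdT cells and 22.2 CPM in CD4 classes, and Nkg7, a protein of cytotoxic granules, at 1541 CPM in gdT cells and 58.1 CPM in CD4 classes. Ly6c1 holds 21.4% of the 31-base stretches of Ly6c2, which makes the split between them uncertain, and was at 0 in gdT cells and at least 13.2-fold lower than in CD4 classes, taken from 3 UMIs over the gdT sum. Il2rb, the shared β chain of the interleukin 2 and 15 receptors, was at 347 CPM in gdT cells and 108 CPM in CD4 classes, and was higher in gdT cells in 5 of 5 mice. Among the CD4 classes it was at 417 CPM in CD4+ Treg, 203 CPM in CD4+ Mem T and 18.1 CPM in CD4+ Naive T cells, so that gdT cells were below the CD4+ Treg sum. Klrd1 (CD94), Ctsw (cathepsin W), Eomes and Cxcr3 were at 215, 520, 112 and 122 CPM in gdT cells, against 17.1, 88.9, 7.53 and 16.9 CPM in CD4 classes. Cd27, the marker of the type 1 branch, was at 365 CPM in gdT cells and 258 CPM in CD4 classes and had a UMI in 42 of 73 cells (57.5%, 46.1% to 68.2%), against 3.26% of B cells (35.2% of gdT and 0.952% of B cells after thinning).

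Against the CD8+ Mem T cells these genes went both ways, with 12 of the 25 at a higher CPM in gdT cells and 13 at a lower one. In CD8+ Mem T cells Ccl5 was at 3045 CPM, Nkg7 at 1369 CPM, Il2rb at 359 CPM, Klrd1 at 209 CPM and Eomes at 127 CPM. Ly6c2 was lower in gdT cells (1293 CPM) than in CD8+ Mem T cells (2297 CPM), and so was Cxcr3 (122 CPM in gdT and 213 CPM in CD8+ Mem T cells). Xcl1, a chemokine, Gzmm, a granzyme, Ccl4, another chemokine, and Hopx were at 42.2, 23.4, 14.1 and 32.8 CPM in gdT cells, against 154, 113, 63.7 and 101 CPM in CD8+ Mem T cells. CD8+ Mem T cells were deeper, with a median of 5102 UMIs, and 56.2% of gdT cells and 72.9% of CD8+ Mem T cells had a Ccl5 UMI. Thinned to 1000 UMIs, it was found in 50.7% of gdT cells and 55.5% of CD8+ Mem T cells, while a Ly6c2 UMI was found in 42.3% of gdT cells and 84.2% of CD8+ Mem T cells (50.7% and 94.3% before thinning). In B cells, thinned likewise, the shares were 0.589% for Ccl5 and 1.31% for Ly6c2.

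Against both CD8 classes together, 44 of 2407 counted genes were higher in gdT cells (1.83%) and 27 lower (1.12%) past 2-fold. The 10 genes with the largest ratios were all γ or δ receptor genes, led by Trgv2 and Trdc (log2 ratios of 5.61 and 5.54), and Ccl5 came next at 2.91. S100a6 and Anxa2, a calcium-binding protein and its annexin partner, were at 178 and 98.4 CPM in gdT cells, against 38.3 and 22.4 CPM in CD8 classes. The CD8+ Mem T cells alone had them at 171 and 78.5 CPM and the CD8+ Naive T cells at 3.72 and 7.73 CPM. Among the 10 lowest were both CD8 chains, 7 β variable genes and Actn2. Ifngr1, the interferon γ receptor, was at 379 CPM in gdT cells, against 143 CPM in CD8 and 112 CPM in CD4 classes, above both in 5 of 5 mice.

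Genes of T cell development and receptor signalling went both ways. Of 18 such genes, 5 had a higher CPM in gdT than in CD4 cells and 13 a lower one, while 11 had a higher CPM in gdT than in CD8 cells and 7 a lower one. Of the 12 that could be counted against CD4 cells, 0 were higher and 5 lower past 2-fold. Their median log2 ratio was -0.54, beside 0.003 over all counted genes, and 6 entered through their CD4 level alone. Against CD8 cells 10 could be counted, with 1 higher and 0 lower. There the median was 0.22, near the 0.14 over all counted genes. Cd5, an inhibitor of receptor signals, was at 89.0 CPM in gdT cells, against 319 CPM in CD4 and 112 CPM in CD8 classes, Cd6 at 79.6 CPM in gdT cells, against 188 and 99.4 CPM, and Cd28 at 103 CPM in gdT cells, against 232 and 81.1 CPM. Egr1, an immediate response gene, was at 14.1 CPM (3 UMIs) in gdT cells and 69.5 CPM in CD4 classes, and Nr4a1, another, at 70.3 CPM in gdT cells (15 UMIs in 4 cells) and 37.3 CPM in CD4 classes. Id3, an inhibitor of E proteins that γδ T cells need in the thymus, was at 323 CPM in gdT cells, against 213 CPM in CD4 and 116 CPM in CD8 classes, with the CD8 sum exceeded in 5 of 5 mice.

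Against NK cells the differences were more numerous. Of 3098 counted genes 117 were higher (3.78%) and 354 lower (11.4%) past 2-fold, and all 9 NK markers were among the lower ones. Of these 9 markers, 8 entered the count through their level in NK cells alone. Their being lower in gdT cells therefore describes the classes and tests nothing. Gzma, a granzyme, was at 9.37 CPM (2 UMIs) in gdT cells and 8773 CPM in NK cells, and Ncr1, the NK receptor NKp46, was at 0 in gdT cells and at least 62.7-fold lower than in NK cells, taken from 3 UMIs over the gdT sum. Klra8 was also at 0. Tyrobp and Fcer1g, adaptors of NK receptors, were at 14.1 and 37.5 CPM in gdT cells, against 3226 and 2606 CPM in NK cells. Ccl5 and Nkg7 were lower in gdT than in NK cells in 5 of 5 mice.

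Several defining type 17 genes were at 0 in the annotated gdT cells. Of 27 listed genes in the file, 11 had 0 UMIs in gdT cells, 8 had a higher CPM in gdT than in CD4 cells and 19 a lower one. Il23r, Il1r1, Ccr6, Ccr2, Blk, Tmem176a and Zbtb16 had 0 UMIs of 213520, where a count of 0 allows up to 14.1 CPM. In the CD4 classes all of these but Ccr2 (14.2 CPM) were under that limit too, so a lower level than in CD4 cells was not detectable at this depth. Of 9 genes of this program, 6 gdT cells held a UMI of at least 1 gene and 1 cell held UMIs of at least 2 genes. Cd163l1, a scavenger receptor of type 17 γδ cells, had 10 UMIs in 2 cells (46.8 CPM in gdT cells and 3.96 CPM in CD4 classes), and Tmem176b had 1 UMI. Podnl1 was at 23.4 CPM in gdT cells (5 cells) and 8.17 CPM in CD4 classes, 5830411N06Rik at 18.7 CPM in gdT cells (4 cells) and 2.43 CPM in CD4 classes, and Il18r1 at 28.1 CPM in gdT cells and 21.2 CPM in CD4 classes. Cxcr6 and Ramp1 of the same list, which other T cells also express, were at 112 and 117 CPM in gdT cells, against 25.9 and 142 CPM in CD4 classes and 124 and 105 CPM in CD8 classes.

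Among themselves the gdT cells differed in Ccl5. It had a UMI in 41 of 73 cells (56.2%, 44.8% to 67.0%), with a median of 20 UMIs and up to 83 in those cells, and 4 of the 41 had exactly 1. The cells with Ccl5 had a median of 3045 UMIs in all and those without it 2446. This split and the genes named in it were chosen after the values had been seen, so what follows is a description, with no test.

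Several other type 1 genes were found more often in cells with Ccl5. Ly6c2 was found in 30 of 41 cells with Ccl5 and 7 of 32 without, Il2rb in 28 of 41 and 7 of 32, Cxcr3 in 19 of 41 and 3 of 32, and Eomes in 15 of 41 and 2 of 32. Outside that list, Bcl2, which protects from cell death, was found in 23 of 41 and 6 of 32. Cd27 of the type 1 list went the other way, at 298 CPM in cells with Ccl5 and 472 CPM in cells without, and was higher in the cells with Ccl5 in 1 of 4 mice. Ly6c2 led the ranking of 1526 genes on the CPM ratio, followed by Il2rb, Bcl2 and Eomes, and each of the 4 was higher in the cells with Ccl5 in 4 of the 4 mice that had at least 3 cells of each kind. Trdc itself was at 588 CPM in cells with Ccl5 and 533 CPM in cells without.

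Near the other end of that ranking was Ly6a (Sca-1), at 168 CPM in cells with Ccl5 and 775 CPM in cells without. Ifit1 was at 30.5 CPM in cells with Ccl5 and 194 CPM in cells without, and the GTPase genes Igtp and Tgtp2 were at 53.5 and 303 CPM and at 137 and 424 CPM in the same order. Ly6a, Ifit1 and Igtp were higher in the cells with Ccl5 in 0 of the 4 mice compared, and Tgtp2 in 1. Cd8b1 was found in 4 of 41 cells with Ccl5 and 12 of 32 without, and Ccr7 in 16 of 41 and 21 of 32.

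With the mice pooled, the δ variable genes were not spread evenly over this split. Of the cells with at least 2 UMIs of the gene, Ccl5 was found in 8 of 9 dv6 cells, 11 of 13 Trav13-4-dv7 cells and 7 of 10 Trdv1 cells, but in 6 of 14 Trdv2-2 cells and 3 of 14 Trdv5 cells. Trdv5 cells came from 6 of the 7 mice, with 6 of the 14 from WT mouse 97, and none of these 6 held Ccl5. Within mice, the summed level of Trdv5 was higher in the cells with Ccl5 in 2 of the 4 mice compared, and that of Trdv2-2 in 0. The Trdv5 contrast was therefore not the same in every mouse. The plot of δ variable genes and Ccl5 shows these counts.

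**Figure D2:**
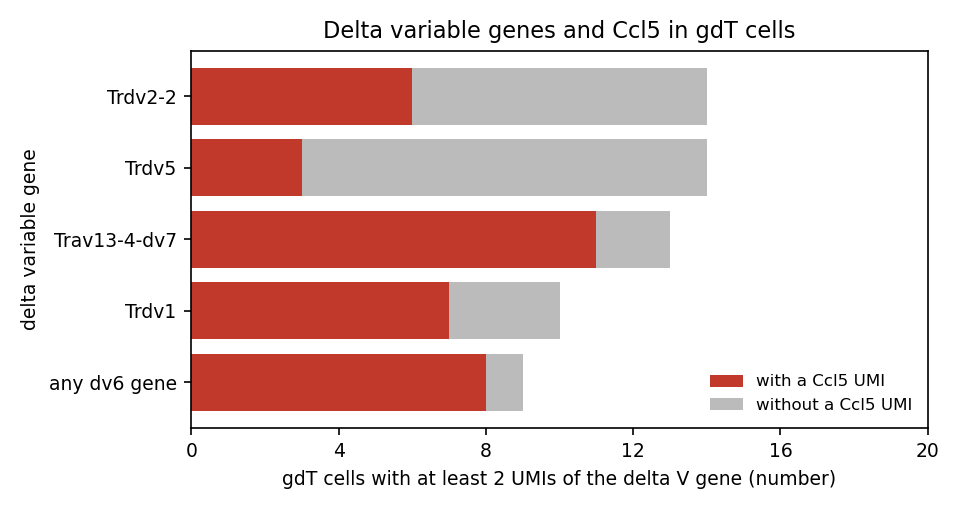
Number of gdT cells, pooled over mice (x axis), with at least 2 UMIs of each δ variable gene (y axis), split into cells with a Ccl5 UMI (red) and without one (grey). Cells with Trav13-4-dv7 or a dv6 gene mostly held Ccl5 (11 of 13 and 8 of 9), whereas Trdv5 cells mostly did not (3 of 14 did).

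By mouse, Ccl5 was found in 2 of 4, 3 of 5, 11 of 14 and 10 of 17 gdT cells of Aire-DTR mice 8, 36, 4 and 7, and in 3 of 3, 6 of 17 and 6 of 13 of WT mice 6, 97 and 1. The genotypes overlapped. By node it was found in 18 of 22 udLN and 23 of 51 brLN cells. The udLN share was above the brLN share in 4 of the 7 mice. It was lower in Aire-DTR mouse 4 (5 of 7 cells in udLN, 6 of 7 in brLN) and Aire-DTR mouse 36 (1 of 2 in udLN, 2 of 3 in brLN), and all 3 cells of WT mouse 6 held Ccl5. These are shares of few cells per mouse, and the test of Ccl5 between nodes is given with the other genes below.

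γδ transcripts also occurred outside the annotated class. Over the 7227 other cells, 47 held a Trdc UMI and 72 a UMI of Trdc or of a γ constant gene. The share with any of these constant genes was 82.2% in gdT cells (60 of 73), 29.6% in NK cells (16 of 54), 3.38% in CD4+ Mem T cells (18 of 533), 2.85% in CD8+ Mem T cells (10 of 351) and 0.0882% in B cells (2 of 2267). Thinned to 1000 UMIs it was 46.5% in gdT cells, 5.56% in NK cells, 1.72% in CD4+ Mem T cells, 0.862% in CD8+ Mem T cells and 0 of 2207 B cells.

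Among the CD4 cells, those that the submitters had named Th17 stood out, though NK cells had a higher share before thinning. Of 105 cells of that subset, 13 held a UMI of Trdc or of a γ constant gene (12.4%, 7.38% to 20.04%) and 7 held at least 2. Thinned to 1000 UMIs the share was 6.86%. Type 17 genes were found in them. Blk was found in 7 of 13, Ccr2 in 9, Tmem176a in 12, Tmem176b in 10 and Cd163l1, found in 2 of the 73 gdT cells, in 4. Trdv4, a δ variable gene used in mice by type 17 γδ T cells of fetal origin, had 35 UMIs in 5 of the 13 cells, against 1 UMI in the 73 gdT cells.

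Summed, the 13 cells had Blk at 330 CPM, against 2.82 CPM in the 92 other cells of the Th17 subset and 0 in gdT cells, and Cxcr6 at 1108 CPM in the 13 cells, 178 CPM in the 92 and 112 CPM in gdT cells. Cd4 had 1 UMI in the 13 cells (23.6 CPM), against 189 CPM in the 92, while Cd3e was at 1296 CPM in the 13 cells and 1087 CPM in the 92. Ccl5 and Ly6c2 were at 0 UMIs in the 13 cells. The 13 cells were picked by their receptor transcripts, so the γ and δ genes in them are no finding, and the other genes are a description of 13 cells, 7 of them from Aire-DTR mouse 4.

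**Figure D3:**
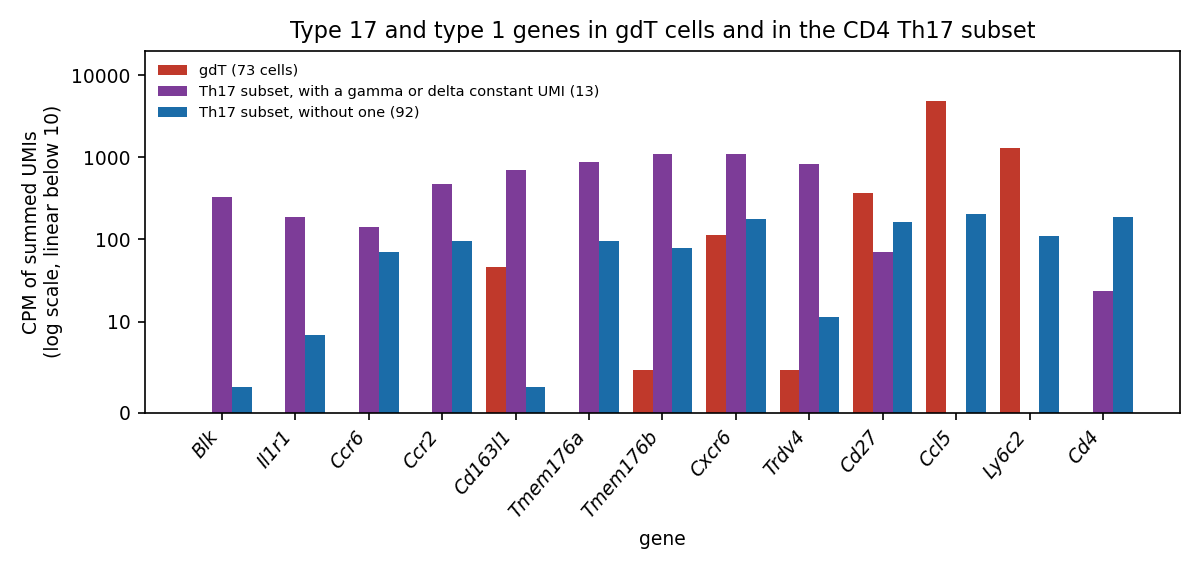
CPM of summed UMIs (y axis, logarithmic above 10) of type 17 genes, Trdv4, type 1 genes and Cd4 in the 73 gdT cells (red), the 13 cells of the CD4 Th17 subset with a γ or δ constant-gene UMI (purple) and the 92 without (blue). The 8 type 17 genes and Trdv4 are highest in the 13 cells, and Ccl5 and Ly6c2 appear in gdT cells but not in the 13.

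The first question set by the design is whether removal of Aire-expressing cells changed the gdT cells. In brLN, gdT cells made up 0.690%, 0.309%, 0.893% and 1.13% of cells in Aire-DTR mice 8, 36, 4 and 7, and 0.787%, 1.81% and 1.21% in WT mice 6, 97 and 1. The mean was 0.756% ± 0.349 in Aire-DTR mice (SD, n = 4) and 1.27% ± 0.516 in WT mice (SD, n = 3), and the ranges overlapped. The log2 difference was -0.95 (SE 0.44), with an adjusted p of 0.115 by edgeR over the 9 classes and 0.229 by the exact permutation test of the means (two-sided, 35 arrangements, smallest possible p 0.0571).

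That difference did not pass the threshold, and it rested on pool 2, where 3 of 972 brLN cells were gdT in Aire-DTR mouse 36 and 16 of 882 in WT mouse 97. Without mouse 36 or without mouse 97, either of which leaves pool 2 with 1 genotype, it was -0.22, and without WT mouse 1 it was -1.89 (edgeR adjusted p = 0.0779). In pool 1 the shares were 0.690% in the Aire-DTR and 0.787% in the WT mouse, and in pool LN 0.893% and 1.13% in the Aire-DTR mice and 1.21% in the WT mouse. With the repeated cells of pool LN kept, the log2 difference was -0.79 and the adjusted p by edgeR 0.199.

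In udLN the shares were 0.639%, 0.576%, 0.985% and 1.51% in Aire-DTR mice 8, 36, 4 and 7, and 0.658%, 2.08% and 0.973% in WT mice 6, 97 and 1. WT mouse 97 had 1 gdT cell of only 48 udLN cells, and its interval ran from 0.369% to 10.9%. The means were 0.928% ± 0.428 in Aire-DTR mice (SD, n = 4) and 1.24% ± 0.749 in WT mice (SD, n = 3), with a log2 difference of -0.05 (SE 0.81), an edgeR adjusted p of 0.952 and an exact permutation p of 0.457. The sign turned positive under several alternatives, given in the closing section, so no direction is drawn.

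With both nodes summed, gdT cells were 0.8003% ± 0.362 of cells in Aire-DTR mice (SD, n = 4) and 1.23% ± 0.552 in WT mice (SD, n = 3). The log2 difference was -0.73 (SE 0.41), with an edgeR adjusted p of 0.381 and an exact permutation p of 0.343. Without mouse 36 or without mouse 97 the log2 difference was -0.08, and without WT mouse 1 it was -1.59 (edgeR adjusted p = 0.0695). Counting the 13 Th17-subset cells with γδ transcripts as well, of which 11 came from Aire-DTR and 2 from WT mice, gave 1.01% ± 0.456 in Aire-DTR and 1.35% ± 0.513 in WT mice, a log2 difference of -0.49 and an edgeR adjusted p of 0.443.

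**Figure D4:**
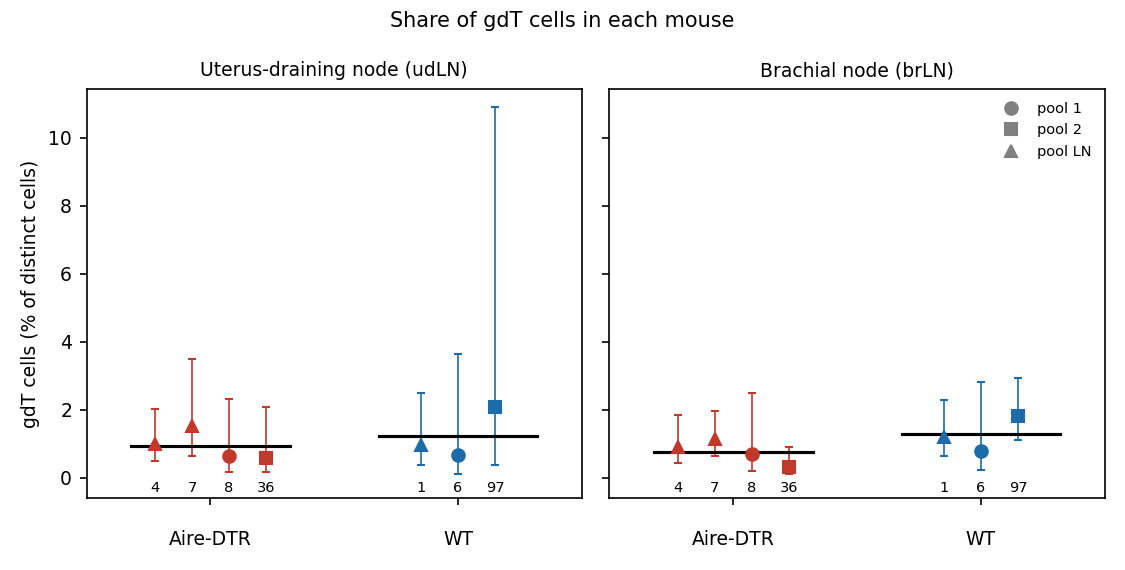
Share of gdT cells among distinct cells (y axis, percent) in each mouse, by node and genotype, with 95% Wilson intervals as bars, horizontal lines at the group means, mouse numbers under the points and marker shape for the pool. Aire-DTR and WT mice overlap in both nodes, and in brLN the lowest and highest points, mouse 36 and mouse 97, are from the same pool.

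Between the nodes of the same mice, the share of gdT cells averaged 1.06% ± 0.553 in udLN and 0.976% ± 0.474 in brLN (SD, n = 7 mice each). The difference of udLN minus brLN was positive in 4 of 7 mice, up to 0.378 percentage points in Aire-DTR mouse 7, and negative in the other 3, down to -0.235 points in WT mouse 1. The log2 difference was 0.14 (SE 0.26) and turned negative under 3 alternatives, among them the repeated cells (-0.21), with an edgeR adjusted p of 0.814 and an exact sign-flip permutation p of 0.391. The difference of udLN minus brLN averaged 0.172 ± 0.190 points in Aire-DTR mice and -0.0317 ± 0.266 points in WT mice, and the genotypes overlapped (exact permutation p = 0.286, 35 arrangements).

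Gene levels within gdT cells could be tested between genotypes in the 5 mice with at least 5 gdT cells, 3 Aire-DTR and 2 WT. Of 637 genes tested by edgeR, 0 passed an adjusted p of 0.05 (0.0%), and 26 had an unadjusted p under 0.05. DESeq2 also called 0 and had 4 such unadjusted values. The sums held 12725 to 52045 UMIs per mouse, so that only the more abundant genes entered.

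Trbv12-1, a β variable gene, had the smallest p. Aire-DTR mice 36, 4 and 7 held 9, 4 and 13 of its UMIs, against 1 in WT mouse 97 and 0 in WT mouse 1 (edgeR adjusted p = 0.254), and its 27 UMIs over all mice lay in 5 cells. It passed the threshold without Aire-DTR mouse 4 (edgeR adjusted p = 0.0281), without WT mouse 1 (edgeR adjusted p = 0.00581) and without the filter on low counts (edgeR adjusted p = 0.0107). Without the pool term the edgeR adjusted p was 0.832, and over all alternatives it ran up to 0.995. Atp5g3, a subunit of ATP synthase, was at 157, 484 and 391 CPM in Aire-DTR mice and 596 and 878 CPM in WT mice, with a log2 fold of -1.11 (SE 0.32) and, by edgeR, an adjusted p of 0.731. Tap2, a transporter that loads peptides for MHC class I, was at 550, 242 and 313 CPM in Aire-DTR mice and 231 and 30.3 CPM in WT mice. Ms4a4b, a membrane protein of T cells, was at 3301, 1984 and 2544 CPM in Aire-DTR mice and 1864 and 1605 CPM in WT mice. Fermt3, an activator of integrins, was at 78.6, 72.6 and 19.6 CPM in Aire-DTR mice and 250 and 333 CPM in WT mice. Tap2, Ms4a4b and Fermt3 each had an edgeR adjusted p of 0.731. Ccl5 differed by 0.02 (SE 0.17) and Trdc by 0.24 (SE 0.32) on the log2 scale, both with an edgeR adjusted p of 0.993.

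Between nodes, only Aire-DTR mice 4 and 7 had at least 5 gdT cells in each. Of 257 genes tested by edgeR with mouse as a block, 0 passed (0.0%) and 20 had an unadjusted p under 0.05, and DESeq2 called 0 and had 0 such values. Nkg7 was at 2465 and 2247 CPM in udLN of mice 4 and 7, against 1565 and 1492 CPM in brLN, higher in udLN in both mice, with a log2 difference of 0.69 (SE 0.19) and an edgeR adjusted p of 0.428. Vim, the intermediate filament vimentin, was at 704 and 514 CPM in udLN and 247 and 113 CPM in brLN, with a log2 fold of 1.84 (SE 0.33) and, by edgeR, an adjusted p of 0.383. Tma7, Mbnl1 and Lcp1 made up the other 3 of the 5 smallest p-values, each higher in udLN in both mice with an adjusted p of 0.428.

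Ccl5 did not move one way between the nodes. It was at 4225 and 9052 CPM in udLN of mice 4 and 7, against 8361 and 3518 CPM in brLN, with a log2 difference of 0.29 (SE 0.51) and an edgeR adjusted p of 0.914. Ly6c2 differed by -0.08 (SE 0.33, edgeR adjusted p = 0.988).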

How the data were processed

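Raw UMI counts per cell and gene (14125 genes), deposited by the authors, were used, with the annotation of mouse, node, genotype and cell type in the deposited cell table. The submitters' processing notes name Scanpy 1.7.0, Seurat, bustools 0.40.0 and kallisto 0.46.1, and the build GRCm38. How cells were filtered, doublets treated and hashtags assigned is not given in the sources used here, and no doublet caller was run. The labels name a 3′ kit but also TotalSeq-C hashtags, which are made for 5′ kits. Which end of the transcripts was read is not settled, and it bears on how well variable genes are counted.

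Repeated entries of well 1 of pool LN were removed, which was chosen after seeing the data. UMIs were summed per class, mouse and node and scaled to CPM. Cell numbers per class and gene sums (at least 5 cells each) were tested with edgeR 4.0.16 (quasi-likelihood, Benjamini-Hochberg, R 4.3.3), with pool or mouse as a term, and with DESeq2 1.42.0 as an alternative. The tests were checked on simulated data with large changes, and for the shares with no variation between mice. That check does not show that smaller differences would be found. Gene positions and 31-base stretches came from GENCODE vM21 (GRCm38). The genes named were the 15 highest and 10 lowest ratios per class, listed genes, and the 5 smallest p where none passed. Some listed genes are not reported here. Wells are not replicates of a genotype, so mice were. Members and lists were chosen with earlier results of these data known.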

Additional observations from a re-analysis of the deposited data

Results flagged for a closer look

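The 13 cells of the CD4 Th17 subset that held a UMI of Trdc or of a γ constant gene stood out because they lie outside the annotated gdT class. They were 12.4% of the 105 cells of that subset, against 0.0882% of B cells. By mouse, 7 came from Aire-DTR mouse 4, 2 from Aire-DTR mouse 7, 1 each from Aire-DTR mice 8 and 36, and 1 each from WT mice 6 and 97. By node, 6 came from udLN and 7 from brLN. How the subset was annotated is not given in the sources used here. No gdT share stood apart from the others of its group among the 4 Aire-DTR mice, in either node or in both, and none of the 7 differences between nodes did.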

How the results depend on the processing

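No paired analysis was possible because, between the genotypes, the shared numbers are those of wells, which are loadings of the same pools and not samples of a genotype, whereas the nodes were paired by mouse. Among the alternatives to the shares of gdT cells, 50 kept their direction without passing the threshold and 9 turned it. The udLN difference between genotypes was 0.0736 with TMM scaling, 1.21 with Trdc-positive gdT cells only and 0.15 with the Th17-subset cells added (an alternative chosen after seeing the data), and ran from -0.82 to 0.19 with each mouse left out. The udLN over brLN difference was -0.00922 without the mouse block, -0.10 with TMM and -0.21 with the repeated cells kept. The count of genes called between genotypes was 2 without the filter on low counts and 0 to 5 with a mouse left out (1 each without mouse 4, 7 or 97, and 5 without WT mouse 1), and between nodes 1 with sums of at least 3 cells. Leaving out a mouse, or sums of at least 10 cells, left too few samples for the node test. With 50 CPM added in place of 10, genes past 2-fold fell to 38 higher and 30 lower against CD4, 22 and 12 against CD8, and 67 and 161 against NK cells. With pool LN only, 121 genes were lower against CD4, 48 lower against CD8, and 73 higher and 545 lower against NK. The mean over mice gave 44 lower against CD8, and the repeated cells gave 180 higher against NK. The cause was not tested. None of the ratios ranked highest or lowest against each class changed sign. They were picked as extremes of these data, and CPM added to both sides cannot change a sign, so little was tested. With 50 CPM added, 40 of them moved by more than the SD of the ratio over mice and 35 did not. Over all alternatives, 45 values moved that far and 930 did not. Depth limits what can be seen: a gene at 0 in the gdT sum could be at up to 14.1 CPM, and 73 cells over 7 mice leave wide intervals.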

Other observations

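The commoner δ variable genes were found in several mice each rather than in 1. At 2 or more UMIs, Trdv2-2 was found in 5 of the 7 mice, with 8 cells from Aire-DTR and 6 from WT mice. Trav13-4-dv7 was found in 7 cells from Aire-DTR and 6 from WT mice, Trdv1 in 6 and 4, and Trdv5 in 6 and 8. No test was made on these few cells.

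Several β variable genes were abundant in few gdT cells. The 45 UMIs of Trbv13-1 lay in 5 cells and the 22 UMIs of Trbv5 in 2, while Trbv13-3, at 129 CPM in the CD4 and 131 CPM in the CD8 classes, was at 0 in gdT cells. A Trdv4 UMI was found in 1 of 73 gdT cells and in 8 of 54 NK cells.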
